A study of Mus musculus with 768 samples.

Results

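The Dusp, Sprouty, Spred and PEA3-group Ets genes described here are 10 transcripts that cells use to restrain, or to carry out, signalling through the kinase ERK. The members are Dusp4, Dusp6, Spry1, Spry2, Spry4, Spred1, Spred2, Etv1, Etv4 and Etv5. They were chosen by symbol, and all 10 were found among the 52636 genes of the count tables. Their levels come from mouse cochlear organoids profiled as single cells on culture Day 1, Day 3 and Day 7.

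Greater epithelial ridge (GER) cells, the epithelium on the inner side of the hair cells in the cochlear duct, were sorted from mice on postnatal day 2 that carried the Sox2-GFP, Fgfr3-CreERT2 and Ai14-tdTomato alleles. In these mice GFP reports Sox2, and the Fgfr3 promoter drives a Cre that acts only after tamoxifen; no tamoxifen treatment is recorded in the labels used here. On every day the medium held EGF (20 ng/mL), FGF2 (10 ng/mL) and IGF1 (50 ng/mL), all 3 of them ligands of receptors that signal to ERK, with the GSK3 inhibitor CHIR99021 (3 µM), valproic acid (500 µM) and the TGFβ receptor inhibitor 616452 (2 µM). There was no culture without the growth factors, so a day is compared only with another day in the same medium. Single cells were picked by hand and made into SmartSeq2 libraries, which cover whole transcripts and carry no molecular identifiers.

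Each of the 768 cells is labelled with a day and a replicate, taken here as the culture: 3 cultures on Day 1 (192 cells), 3 on Day 3 (255 cells) and 5 on Day 7 (321 cells). After limits on reads, genes and mitochondrial reads, 711 cells were retained, with a median of 798924 reads and 6842 genes per cell. Nothing in the labels says whether cultures came from separate mice, so the p-values measure only the spread between cultures, which may be technical. Epcam or Cdh1, epithelial transcripts, had a read in 99.7% of retained cells. Levels are given in CPM, reads per 1000000 reads after each culture's total was scaled by TMM, edgeR's normalisation between libraries. The GER markers fixed for this work (Tecta, Tectb, Otog, Otoa, Calb1, Crabp1 and Epyc) summed to 9099 to 13625 CPM on Day 1 and 2020 to 3882 CPM on Day 7. Epithelial markers (Epcam, Cdh1, Krt8, Krt18) summed to 2912 to 4970 CPM on Day 1 and 1566 to 2455 CPM on Day 7, and the part of these shifts in the members' levels was not tested. Endothelial markers summed to at most 0.466 CPM in any culture, and Pecam1 and Kdr were at 0 on all days. Mesenchymal markers (Pou3f4, Col1a1, Col3a1, Pdgfra, Tbx18, Dcn) summed to 186 to 1059 CPM over all cultures. On Day 1 they summed to 500 to 635 CPM with Col3a1, Pdgfra and Tbx18 at 0. That sum therefore came from Pou3f4, Col1a1 and Dcn. Every marker of the list was found in at least 1 culture on Day 3, and all but Col3a1 on Day 7. Day 7 culture 5 had the fewest genes per cell (median 5681) and the highest mitochondrial share (6.76%).

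Growth factor receptors pass their signal through Ras, Raf and MEK to ERK, and ERK activity in turn switches on genes that dampen the same route. Dusp6 and Dusp4 are phosphatases that remove the activating phosphates from ERK, Dusp6 in the cytoplasm and Dusp4 in the nucleus. Sprouty proteins (Spry1, Spry2, Spry4) interfere with the step from receptor to Ras and Raf, and Spred1 and Spred2 bring the Ras inactivator neurofibromin to the membrane. Etv1, Etv4 and Etv5 are transcription factors of the PEA3 group of Ets proteins, which are widely used as transcriptional readouts of FGF signalling. In the developing cochlea, FGF signalling and its Sprouty brakes set the number and kind of supporting cells beside the hair cells.

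Spry1 and Spry2 encode close relatives that took different courses over the culture, so the DNA around their transcription starts is shown. Each sequence runs from 250 bases before to 50 bases after the start, taken from RefSeq on GRCm38.p6. Spry1 lies at chr3:37639697-37639996 on the plus strand and Spry2 at chr14:105896770-105897069 on the minus strand. Capitals mark CCGGAA, the form of the Ets motif searched for here.
Spry1: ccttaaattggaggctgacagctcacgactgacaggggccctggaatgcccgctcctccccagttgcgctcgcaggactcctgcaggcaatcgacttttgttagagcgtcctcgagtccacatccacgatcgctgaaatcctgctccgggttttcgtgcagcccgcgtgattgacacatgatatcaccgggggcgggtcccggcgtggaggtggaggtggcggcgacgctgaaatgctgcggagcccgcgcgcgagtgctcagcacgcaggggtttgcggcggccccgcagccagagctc
Spry2: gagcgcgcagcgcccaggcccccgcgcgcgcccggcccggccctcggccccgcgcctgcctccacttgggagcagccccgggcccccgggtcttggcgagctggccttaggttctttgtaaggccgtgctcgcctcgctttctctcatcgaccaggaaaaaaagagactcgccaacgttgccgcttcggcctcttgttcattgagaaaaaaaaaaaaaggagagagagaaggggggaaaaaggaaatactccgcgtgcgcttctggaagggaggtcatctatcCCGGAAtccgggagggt
CCGGAA was found in the Spry2 window, with its first base 34 bases after the start, and not in the Spry1 window. The table held 9 promoters for 7 of the members, and Spry2's was the only one of the 9 with CCGGAA, searched on both strands. Of all 32851 mouse promoters of the same 300 bases, 14.9% held it. The AP-1 motif TGANTCA (7.81% of all promoters) and the Capicua motif TGAATGNA (3.82%) were found in 0 of the 9. A match describes letters in this window only. Other forms of the Ets motif were not searched for, so a window without CCGGAA may still hold an Ets site.

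Spry1 rose over the culture and was the only member that passed the test between days. Its level was 39.3, 39.7 and 44.1 CPM in the Day 1 cultures, 104, 79.9 and 108 CPM in the Day 3 cultures, and 145, 132, 145, 194 and 150 CPM in the Day 7 cultures. No culture of a later day overlapped any culture of an earlier day. Spry1 was 3.73-fold higher on Day 7 than on Day 1 (log2 fold change 1.90 ± 0.19 SE, edgeR quasi-likelihood test, adjusted p = 0.000379 over all genes). On Day 3 it was 2.37-fold above Day 1 (1.25 ± 0.20), which missed the threshold (adjusted p = 0.0757 by edgeR, 6.77e-06 by DESeq2). Day 7 stood 0.65 ± 0.18 above Day 3 on the log2 scale, with an edgeR adjusted p of 0.122 and a DESeq2 adjusted p of 0.0136. The gene (ENSMUSG00000037211.12, chr3:37639947-37644598, plus strand, GRCm38, protein coding) shares 710 exonic bases with the antisense gene Gm42922, which reached at most 1.05 CPM in any culture. SmartSeq2 does not mark strand, so reads in the shared bases cannot be assigned to either gene.

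The Spry1 rise was seen in each of the 2 deposited files that hold the cells, which may be batches. Cultures of the first file alone gave a log2 fold change of 1.93 between Day 7 and Day 1, and those of the second file alone gave 1.84. The first file holds 1 Day 1 culture and the second 1 Day 7 culture, so within a file no p is given. The share of cells with a Spry1 read and the reads per such cell were both higher on the later days. After every cell was thinned to 200000 reads, 69.8% ± 7.2 (SD over cultures) of cells had a Spry1 read on Day 1, 82.7% ± 3.7 on Day 3 and 90.0% ± 5.1 on Day 7. The median number of Spry1 reads in cells with a read was 9.0 ± 1.0 (n = 3), 16.8 ± 3.4 (n = 3) and 26.9 ± 3.7 (n = 5).

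**Figure D1:**
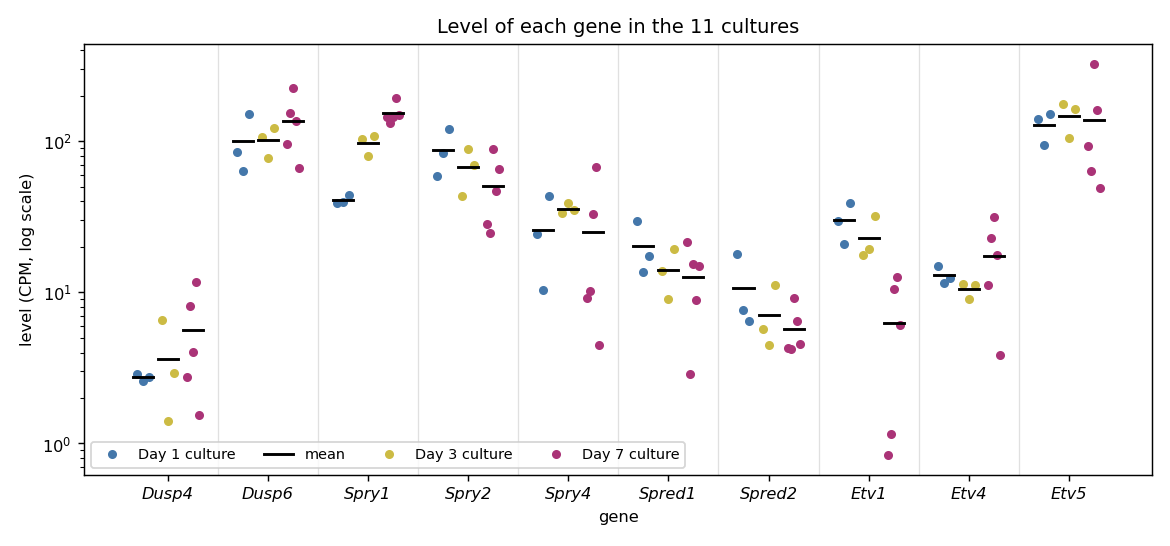
Level of each of the 10 genes in CPM (log axis) in the 3 Day 1, 3 Day 3 and 5 Day 7 cultures, 1 point per culture with the mean as a line. Spry1 steps upward without overlap from 39.3 to 44.1 on Day 1 to 132 to 194 on Day 7, while Etv1 on Day 7 lies below every earlier culture.

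Spry2 ran from 59.3 to 122 CPM on Day 1, from 43.7 to 89.0 CPM on Day 3 and from 24.8 to 89.5 CPM on Day 7. The days overlapped, and the log2 difference between Day 7 and Day 1 was -0.79 ± 0.40 (edgeR adjusted p = 0.256). It was -0.35 within the first file and -0.64 within the second. Nearly every Day 1 cell had a Spry2 read at 200000 reads per cell, 97.4% ± 4.6 against 83.9% ± 8.5 on Day 7. Spry4 varied widely between the Day 7 cultures, at 9.20, 10.3, 33.0, 68.0 and 4.49 CPM, against 33.3, 38.9 and 35.3 CPM on Day 3. Its mean on Day 7 (25.0 ± 26.4 CPM, n = 5) was near that on Day 1 (26.0 ± 16.5 CPM, n = 3), and the log2 difference of -0.05 had a 95% interval of -1.47 to 1.36. It was 0.27 within the first file and -2.57 within the second, whose Day 7 culture is culture 5.

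Dusp6, the cytoplasmic ERK phosphatase, did not pass the test between any days. It measured 84.7, 63.3 and 152 CPM on Day 1, 107, 77.8 and 123 CPM on Day 3, and 96.1, 153, 225, 136 and 66.8 CPM on Day 7. The Day 7 range enclosed all but 1 of the earlier cultures, and the log2 difference from Day 1 was 0.44 (95% interval -0.29 to 1.17, edgeR adjusted p = 0.529). It was 0.81 within the first file and -0.68 within the second. Dusp4, the nuclear phosphatase, was rare: 2.61 to 2.90 CPM on Day 1, 1.41 to 6.53 on Day 3 and 1.54 to 11.8 on Day 7. A Dusp4 read was found in 9.71% ± 2.35 of Day 1 cells and 15.2% ± 7.6 of Day 7 cells at equal depth. The Dusp4 log2 difference between Day 7 and Day 1 was 1.03 ± 0.72, with 1.15 in the first file and -0.80 in the second.

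Spred1 measured 13.7 to 29.6 CPM on Day 1, 8.99 to 19.3 on Day 3 and 2.87 to 21.5 on Day 7 (log2 difference between Day 7 and Day 1 -0.67 ± 0.51, edgeR adjusted p = 0.472). Spred2 ran from 6.51 to 17.9 CPM on Day 1, 4.45 to 11.2 on Day 3 and 4.22 to 9.25 on Day 7 (-0.89 ± 0.47, edgeR adjusted p = 0.275). Neither Spred gene separated the days. Within the first and the second file Spred1 gave -1.31 and -0.06, and Spred2 -1.59 and -0.64. Both were found in a smaller share of cells on Day 7, Spred1 in 27.2% ± 9.2 against 47.5% ± 15.5 on Day 1 and Spred2 in 24.8% ± 12.9 against 41.8% ± 12.1.

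Etv1, of the 3 Ets genes, had lower values on Day 7 than on both earlier days. Its level was 29.9, 21.0 and 39.0 CPM on Day 1, 17.8, 19.3 and 32.1 CPM on Day 3, and 0.836, 1.15, 10.6, 12.6 and 6.09 CPM on Day 7. Every Day 7 culture was below every culture of Day 1 and Day 3. The log2 difference between Day 7 and Day 1 was -2.26 ± 0.69, which missed the threshold in edgeR (adjusted p = 0.0700) and passed it in DESeq2 (adjusted p = 0.00512) and in limma on the mean log level per cell (adjusted p = 0.000976). It was -2.27 within the first file and -2.30 within the second, whose Day 7 culture is culture 5. With the deposited file as a term the edgeR adjusted p was 0.128. The share of cells with an Etv1 read went from 60.3% ± 7.5 on Day 1 to 39.1% ± 8.9 on Day 3 and 14.1% ± 12.3 on Day 7. An Etv1 read was found in 29.0% and 25.6% of cells in Day 7 cultures 3 and 4. In Day 7 cultures 1, 2 and 5 it was found in 7.69%, 5.41% and 2.67%. Those are too few cells to judge how evenly the reads were spread over cells. In Day 7 cultures 1 and 2 the level rests on 27 and 35 reads in all. In Day 7 culture 5 it rests on few cells, with an Etv1 read in 2 of 75 at equal depth.

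Etv4 and Etv5 overlapped between Day 7 and Day 1. Etv5 stood at 140, 94.5 and 151 CPM on Day 1 and 176, 106 and 163 CPM on Day 3. On Day 7 its cultures stood at 93.3, 64.0, 327, 162 and 49.1 CPM, both above and below every earlier culture. Its log2 difference between Day 7 and Day 1 was 0.11, with a 95% interval of -0.88 to 1.10. The 2 files went opposite ways for Etv5, 0.18 in the first and -1.32 in the second, and so did Etv4, at 0.45 and -1.63. Etv4 measured 14.9, 11.6 and 12.4 CPM on Day 1, 11.4, 9.02 and 11.2 CPM on Day 3, and 11.3, 23.1, 31.5, 17.6 and 3.87 CPM on Day 7. Its 3 Day 3 cultures were all below the 3 Day 1 cultures, with a fitted log2 fold change of -0.29 ± 0.55 (edgeR adjusted p = 0.933). The genes lie at chr12:38779380-38870484 (Etv1, plus strand), chr11:101769742-101785371 (Etv4, minus strand) and chr16:22381309-22439719 (Etv5, minus strand) on GRCm38.

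**Figure D2:**
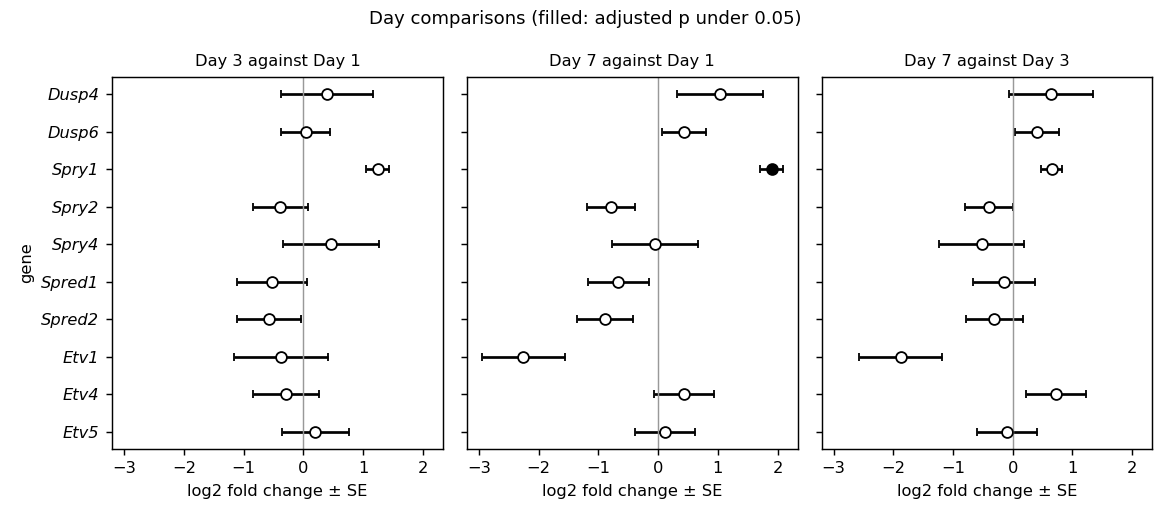
Log2 fold change with its standard error for each gene in the 3 day comparisons from the edgeR fit over 11 cultures. A filled point passed an adjusted p of 0.05, which was reached by Spry1 alone and in Day 7 against Day 1 (1.90 ± 0.19), while the open Etv1 point lies at -2.26 ± 0.69.

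As a group the members showed no common direction. Of the 10, 5 had a higher and 5 a lower fitted level on Day 7 than on Day 1, with a median log2 fold change of 0.03 against 0.00 over all 17466 genes tested. The number called was 1 of 10 members for Day 7 against Day 1, where 7.11% of all genes were called. That share depended on the Day 1 cultures included: the 1241 genes called became 436, 507 and 618 without Day 1 cultures 1, 2 and 3. Each of these fits also had fewer Day 1 cultures, and the part of that in the lower counts was not tested. For Day 3 against Day 1 it was 0 of 10 by edgeR, with 0.0115% of genes called, and for Day 7 against Day 3 it was 0 of 10, with 0.968% of genes called. At an unadjusted p under 0.05 the members numbered 1 and 2 in those last 2 comparisons, and DESeq2 called Spry1 alone in each. Members without overlap between the days numbered 2 in each comparison: Spry1 higher with Etv4 lower on Day 3 than on Day 1, and Spry1 higher with Etv1 lower on Day 7 than on Day 1 and on Day 3. Over all genes tested, 18% did not overlap between Day 1 and Day 3, 17.8% between Day 1 and Day 7, and 8.13% between Day 3 and Day 7.

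Compared by mean level per kilobase of exon, the members kept a set of 4 abundant and 6 scarce genes, with a change of leader. On Day 1 the mean level per kilobase was 42.2 CPM for Spry2, 32.0 for Dusp6, 31.4 for Etv5 and 14.1 for Spry1, and the first 3 overlapped. Spry4 followed at 5.47 CPM per kilobase without overlap with Spry1, and Dusp4 was last at 1.01. On Day 3 those 4 genes ran from 36.1 (Etv5) to 32.3 CPM per kilobase (Spry2), each overlapping its neighbour. On Day 7 Spry1 came first at 52.7 ± 8.2 CPM per kilobase, then Dusp6 at 43.3 ± 19.3, Etv5 at 33.9 ± 27.7 and Spry2 at 24.4 ± 12.9, again with each neighbour overlapping. Single cultures of the 2 sets overlapped on Day 7. Spry4 reached 14.3 CPM per kilobase there, above the lowest Spry2 (11.9) and Etv5 (12.0) cultures. Etv1 was last on Day 7 at 0.470 CPM per kilobase. These lengths are the union of annotated exons, which for Etv1 (13296 bases) may exceed the transcript made in these cells.

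**Figure D3:**
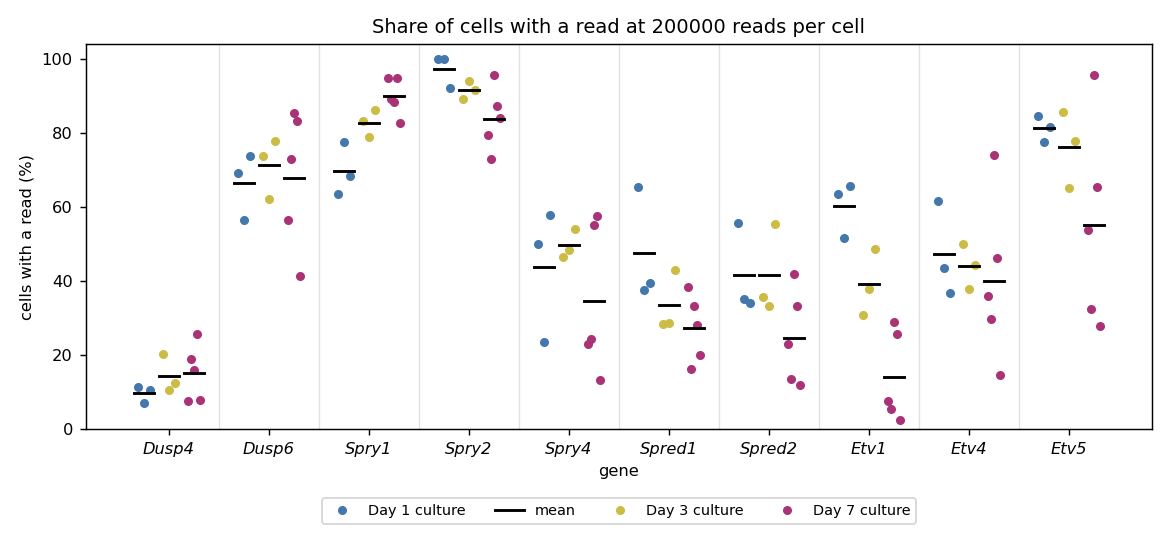
Percent of cells with at least 1 read of each gene after thinning to 200000 reads per cell, 1 point per culture with the mean of each day as a line. Etv1 goes from a mean of 60.3% on Day 1 to 14.1% on Day 7 and Spry1 from 69.8% to 90.0%, while Etv5 on Day 7 spans 28.0% to 95.7% between cultures.

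At equal depth a Day 1 cell carried a read of 5.65 ± 0.57 of the 10 members on average (SD over 3 cultures). The average was 5.44 ± 0.47 on Day 3 and 4.53 ± 1.26 over the 5 Day 7 cultures. Of 695 cells with at least 200000 reads, 5 had a read of none of them. Day 7 cultures 1 to 5 averaged 4.21, 3.76, 6.14, 5.47 and 3.07 members per cell.

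The Day 7 cultures also differed in how many cells were dividing. A cell was called cycling when it had a read, at 200000 reads, of at least 3 of 6 mitotic transcripts (Mki67, Top2a, Cdk1, Birc5, Ccnb2, Tpx2), none of them a member. Cycling cells made up 15.3% to 25.0% of cells in the Day 1 cultures and 52.8% to 65.5% in the Day 3 cultures. In Day 7 cultures 1 to 5 they made up 56.4%, 37.8%, 87.0%, 75.6% and 25.3%. The 5 Etv5 levels on Day 7 fell in the same order, highest in culture 3 and lowest in culture 5. Within the non-cycling cells alone, Etv5 stood at 64.0, 42.5, 338, 193 and 37.1 CPM in cultures 1 to 5, still in that order. Median genes per cell were 7137, 6201, 7156, 6800 and 5681 in the same cultures, with culture 3 again highest and culture 5 lowest. With 5 cultures no correlation is given, and the part of cycling or of library complexity in the Etv5 level was not tested.

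Dusp6 was lower in cycling than in non-cycling cells of the same culture on Day 1 and Day 3. On Day 1 it measured 53.1, 44.9 and 66.3 CPM in cycling against 100.0, 68.9 and 187 CPM in non-cycling cells. Day 3 gave 88.9, 50.7 and 96.3 CPM against 141, 124 and 150 CPM. All 6 cultures went the same way. The Day 1 difference passed the test (log2 fold change -1.01 ± 0.22, edgeR adjusted p = 0.0436), but rested on 9 to 13 cycling cells per culture and was lost in 9 of the 11 fits that left out 1 culture, with adjusted p up to 0.391. It was also lost on thinned counts (edgeR adjusted p = 0.0643) and with cycling set at 2 of the 6 genes (0.140). The Day 3 difference of -0.87 ± 0.22 missed the threshold (edgeR adjusted p = 0.0677). On Day 7 the cultures were split, with Dusp6 higher in cycling cells in 3 of 5 (0.15 ± 0.17). Averaged over the 3 days, with each day weighing the same, Dusp6 was 1.49-fold lower in cycling cells (log2 -0.58 ± 0.12, edgeR adjusted p = 0.00700). That call held in all 11 fits that left out 1 culture, with adjusted p from 0.00739 to 0.0462. The average pools the lower levels of Day 1 and Day 3 with Day 7, where the cultures were split. For Dusp6 the difference between the Day 7 and the Day 3 effect was 1.02 ± 0.28 on the log2 scale and was not called by edgeR. The Day 1 comparison and the average over days were added after the values had been seen.

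Spry2 was lower in cycling cells on Day 3, at 33.4, 64.2 and 47.9 CPM against 63.0, 131 and 92.4 CPM in non-cycling cells of the same cultures. The log2 fold change was -0.97 ± 0.18 (edgeR adjusted p = 0.0115). It lost the call without any 1 of the 3 Day 3 cultures, with adjusted p of 0.0976 without culture 1, 0.165 without culture 2 and 0.145 without culture 3. Thinning every cell to the same depth also ended it (log2 -0.70, edgeR adjusted p = 0.156). On Day 7 all 5 cultures had the higher Spry2 level in cycling cells, by a small margin: 31.6, 28.5, 89.5, 46.6 and 65.3 CPM against 23.9, 20.7, 80.6, 42.6 and 65.0 CPM. The test of the difference between the Day 7 and the Day 3 effect gave 1.19 ± 0.22 on the log2 scale, with adjusted p of 0.650 by edgeR and 0.000213 by DESeq2. The tools therefore split on whether the cycling effect differed between the days. The Spry2 average over the 3 days (-0.34, edgeR adjusted p = 0.0350) pools those opposite directions, and it was lost in each of the 11 fits without 1 culture, with adjusted p from 0.0586 to 0.208.

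Etv4 was higher in cycling cells in all 11 cultures, but the margin was not always wide. It was 15.35 against 15.31 CPM in Day 1 culture 1 and 9.38 against 8.84 CPM in Day 3 culture 2. The Day 7 cultures measured 19.5, 42.7, 32.3, 20.0 and 8.85 CPM in cycling against 0.358, 6.12, 22.4, 7.79 and 1.89 CPM in non-cycling cells. An Etv4 read was found in 53.3% of cycling and 21.0% of non-cycling Day 7 cells, as means over cultures. The Day 7 log2 fold change of 2.34 ± 0.65 missed the threshold in edgeR (adjusted p = 0.0611) and passed it in DESeq2 (0.000779) and in edgeR on thinned counts (0.0161). Without Day 7 culture 3, which had 9 non-cycling cells, the edgeR adjusted p was 0.0442. That was the only call in the 11 fits that left out 1 culture, with edgeR adjusted p up to 0.148. Of 7 settings with the main fit among them, 2 called the Day 7 difference, with edgeR adjusted p up to 0.213. On Day 1 and Day 3 the differences were 0.60 ± 0.74 and 0.83 ± 0.76.

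Spry1 was higher in cycling cells in all 3 Day 3 and all 5 Day 7 cultures, and in 1 of 3 on Day 1. The Day 7 sums were 166, 151, 156, 200 and 161 CPM in cycling against 116, 110, 43.5, 153 and 144 CPM in non-cycling cells (0.66 ± 0.25, edgeR adjusted p = 0.183). In non-cycling cells alone Spry1 was still higher on Day 7 than on Day 1, by 1.53 on the log2 scale, with an edgeR adjusted p of 0.0610. Etv1 went the other way on Day 1 and Day 3, lower in cycling cells in all 6 cultures, with log2 fold changes of -1.18 ± 1.05 and -1.45 ± 1.05, neither past the threshold. Of the 10 members, 1 was called on Day 1 (1.45% of 16684 genes tested), 1 on Day 3 (2.13% of genes), 0 by edgeR on Day 7 (4.5% of genes) and 2 in the average over days (9.28% of genes). On Day 7, 3 members (Spry1, Etv4 and Etv5) had an unadjusted p under 0.05, and DESeq2 called Etv4 alone. These values are relative to each group's TMM-scaled read total, so a lower level in cycling cells and more total RNA per cycling cell cannot be told apart.

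**Figure D4:**
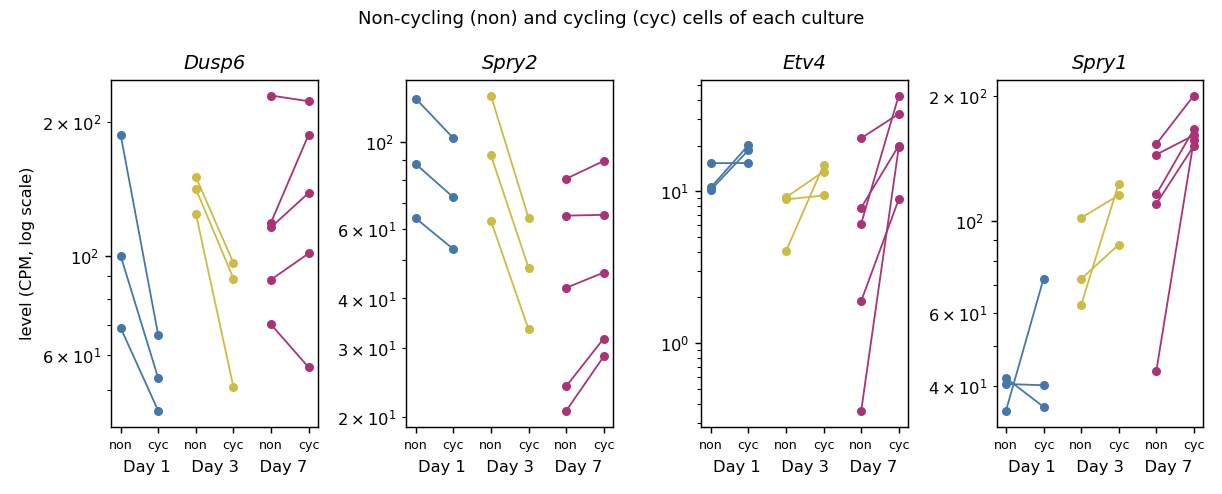
Level in CPM (log axes) of Dusp6, Spry2, Etv4 and Spry1 in the non-cycling and cycling cells of each culture, joined by a line per culture and coloured by day. Dusp6 lines fall on Day 1 and Day 3, and Spry2 lines fall on Day 3 and rise slightly on Day 7. Etv4 lines point upward in all 11 cultures, though they are nearly flat in Day 1 culture 1 and Day 3 culture 2.

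Cell by cell, several of the members were high in the same cells. Spearman's rho was computed across the thinned cells within each culture and averaged over the 11 cultures (695 cells), for the 9 members with a read in at least 20% of cells. Dusp4 did not reach that share. The 36 pairs had a median rho of 0.152, and the median over all pairs of the 9669 genes with such a share was 0.0427. Those genes were not matched to the members in level or share of cells, and the part of either in the difference was not tested. Of the 36, 35 were above 0. The share above 0 over all gene pairs is not given here, and their median was itself above 0. The cells of a culture share its handling, and all were thinned to the same number of reads. These values are a description with no test.

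The strongest pair was Dusp6 with Etv5, at a rho of 0.336 and above 0 in all 11 cultures. Etv5 ranked first among all 9669 genes for Dusp6, and first also for Spry4 (rho 0.298). Etv4 with Etv5 gave 0.325 (above 0 in 10 of 11 cultures), Dusp6 with Spry2 gave 0.266, Spry2 with Etv5 gave 0.261 and Dusp6 with Spry4 gave 0.256. Spry1 with Etv5 gave 0.225, and Spry2 with Spry4 gave 0.222. Of these 8 pairs, 5 held Etv5. Spry1 stood apart from the other Sprouty genes, at 0.0506 with Spry2 and 0.0808 with Spry4. Its first-ranked gene was Wnt5a, a secreted Wnt ligand (rho 0.331). The Spred genes gave low values with the Sprouty genes, at most 0.0951. In non-cycling cells alone the median over the 36 pairs was 0.148, and in cycling cells alone 0.118.

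Genes outside the set also ranked high. Ccnd1, which encodes cyclin D1 and is itself an ERK-induced transcript, ranked first for Etv5 (0.423) and for Etv4 (0.349). The next genes outside the set were Aldh1a3 (0.351) and Aif1l (0.326) for Etv5. For Etv4 they were Tuba1b (0.322), Rrm1 (0.313) and Tacc3 (0.312). Phlda1, another ERK-induced transcript, ranked second for Spry2 (0.283), after Akap12 (0.292). These genes were chosen for naming after the values were seen. Over the 11 cultures, the 2 genes with the pattern most like Spry1 were Prmt7 (Pearson r of log2 CPM 0.97) and Fbln1 (0.96), out of 9070 genes compared. For Etv1 they were Cspg5 (0.97) and Sntb2 (0.94), and for Etv5 Rangap1 (0.92) and Bop1 (0.92). Spry2 was nearest to Mphosph8 (0.94) and Cmas (0.93), and Dusp6 to Leprotl1 (0.92) and Trabd (0.89). Spred1 was nearest to D17Wsu92e (0.98) and Camsap2 (0.94), and Spred2 to Zfp609 (0.84) and Eif4g3 (0.84). Dusp4 came nearest to Map3k11 (0.97) and Cherp (0.93), Etv4 to Lss (0.90) and Rad17 (0.89), and Spry4 to Slc2a8 (0.85) and Pcyox1l (0.84). By Spearman's rho over the cultures some of these pairs were weaker, such as Spred2 with Eif4g3 (0.51) and Etv4 with Lss (0.64). Others stayed close, such as Spred1 with D17Wsu92e (0.97).

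**Figure D5:**
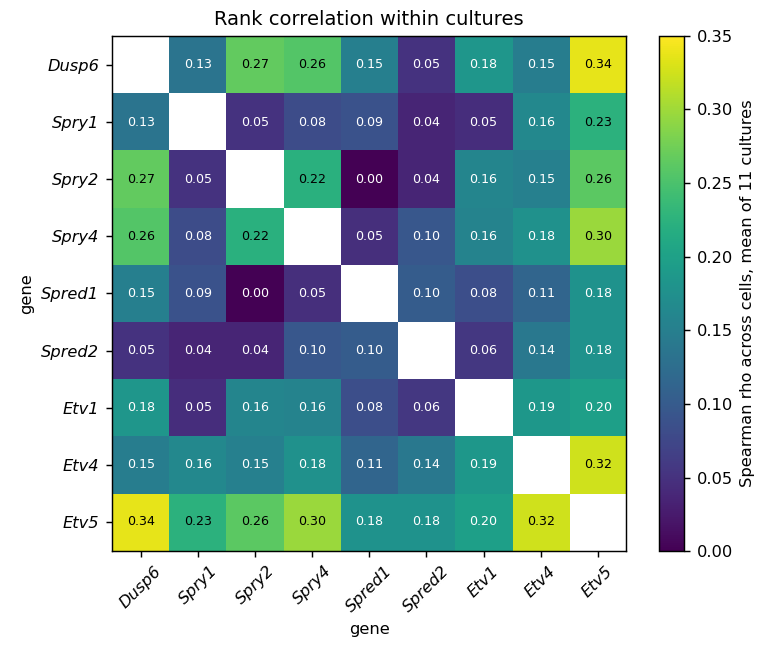
Spearman's rho between 9 of the genes across cells, computed within each culture and averaged over 11 cultures (colour scale from 0 to 0.35). The brightest cells are Dusp6 with Etv5 at 0.34 and Etv4 with Etv5 at 0.32, and Spred1 with Spry2 lies at 0.00.

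The rest of the ERK route was followed in lists of its other genes, to be read beside the 7.11% of all genes called between Day 1 and Day 7. Of 11 receptors tested, 0 rose and 2 fell between Day 1 and Day 7. Igf1r, the receptor for the IGF1 in the medium, went from 78.8 ± 22.4 to 28.9 ± 7.2 CPM (log2 -1.45 ± 0.24, edgeR adjusted p = 0.00565). Erbb4 went from 140 reads over the Day 1 cultures to 1 over the Day 7 cultures (edgeR adjusted p = 0.0239). It ran from 0 to 3.37 CPM in the Day 1 cultures, so the days overlapped. Fgfr1, a receptor for FGF2, stood at 68.6 ± 12.0, 39.4 ± 5.8 and 64.4 ± 21.1 CPM on the 3 days and was not called. Of 14 ligands tested, 0 rose and 3 fell. Igf2 went from 69.1 ± 14.1 to 8.21 ± 7.95 CPM, Hbegf, an EGF receptor ligand, from 35.4 ± 3.9 to 14.3 ± 3.4 CPM, and Igf1 from 4.30 ± 2.46 to 0.0927 ± 0.0617 CPM (edgeR adjusted p of 0.0118, 0.00880 and 0.00636). Fgf8 fell from Day 3 to Day 7, from 1035 reads to 2, with 0.0471 to 13.2 CPM in the Day 3 cultures. Among 20 genes of the cascade itself, from adaptors to ERK, Rras alone was called (45.9 ± 9.3 to 15.7 ± 3.0 CPM, log2 -1.55 ± 0.22, edgeR adjusted p = 0.00266), and it also fell from Day 3 (-1.33).

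Among 17 other feedback genes, 2 rose and 1 fell from Day 1 to Day 7. Il17rd, which encodes the membrane inhibitor Sef, rose from 16.7 ± 3.9 to 52.5 ± 13.6 CPM (log2 1.65 ± 0.29, edgeR adjusted p = 0.00691), so it moved in the direction of Spry1. Spred3 fell from 17.0 ± 1.2 to 3.74 ± 1.71 CPM (-2.19 ± 0.40, edgeR adjusted p = 0.00816). Spry3 had no read in the Day 1 cultures and 515 reads over the Day 7 cultures, at 0.0181 to 4.89 CPM (edgeR adjusted p = 0.0485). Of 13 other Ets genes and Cic tested, Erf, a repressor that ERK inactivates, was called, falling from 37.4 ± 0.5 to 17.2 ± 6.0 CPM (edgeR adjusted p = 0.0439). Of 15 ERK-induced transcripts, 5 rose and 1 fell. Fos rose 8.64-fold, Ier2 4.43-fold, Junb 4.14-fold and Egr2 24.6-fold (log2 3.11 ± 0.58, 2.15 ± 0.30, 2.05 ± 0.41 and 4.62 ± 0.94), and Plaur went from 17.9 ± 9.1 to 1.20 ± 0.45 CPM. No gene of these lists was called between Day 1 and Day 3, where Igf1r (-0.90), Fgfr1 (-0.80), Igf1 (-5.12), Hbegf (-0.93), Sos1 (-0.73), Mapk3 (-0.74), Il17rd (1.14), Cic (-0.93), Ets2 (0.54), Egr1 (0.89) and Ier2 (0.95) had the smallest unadjusted p in their lists, with Spry3, as log2 values. Between Day 3 and Day 7 Plaur fell as well (log2 -2.65), and in the lists without a called gene the smallest p belonged to Fgfr1 (0.71), Dusp16 (-0.995), Spred3 (-1.19) and Erf (-0.86), with Erbb4 and Ets1, both of few reads. The median log2 fold change between Day 7 and Day 1 was -0.05 for receptors, -2.35 for ligands, 0.17 for the cascade, -0.13 for other feedback genes, -0.49 for other Ets genes and 0.47 for ERK-induced transcripts, beside 0.00 over all genes.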

How the data were processed

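The authors deposited expected counts, estimated reads per gene that are not normalised (10.6% of values above 0 were not whole), for 768 cells in 2 files. STAR 2.5.3a and RSEM 1.3.0, with mm10 and GRCm38, are named in the submitters' processing notes; the annotation release is not given in the sources used here. Counts were rounded, and 92 ERCC sequences and 4 transgenes (0.00451% of reads for the latter) were left out. Cells with at least 50000 reads, 1500 genes and at most 20% mitochondrial reads were retained and summed per culture, since cells are not replicates. edgeR 4.0.16 (R 4.3.3) was fitted over all 11 cultures by day (TMM, filterByExpr, quasi-likelihood test, Benjamini-Hochberg over all genes, threshold 0.05). SE is the log2 fold change over the root of F. Cycling and non-cycling cells were summed separately and fitted with culture as a block. Shares of cells used counts thinned to 200000 reads per cell. DESeq2 1.42.0, limma 3.58.1, other filters and leave-one-out fits were alternatives. Scripts were tested on simulated data. Exon lengths come from GENCODE M21.

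The members and gene lists were chosen with earlier results of these data known. All members are named. From each list, called genes with the largest change (up to 4 per direction) are named, or else the 2 with the smallest p. Likeness names the 2 genes of at least 10 CPM with the highest Pearson r, with no p.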

Additional observations from a re-analysis of the deposited data

How the results depend on the processing

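Across the alternatives, 1541 of 1594 values for single members kept their side of the threshold and, where called, their direction. Most of the 1594 belong to results not called in the main fit, so this count does not measure how stable the calls were. Of the others, 32 lost a call of the main fit and 21 gained one. No called value reversed. A further 82 values that were not called in either fit changed sign. The count of members called between Day 7 and Day 1 (1) became 2, with Etv1 added, under DESeq2, limma on mean log levels, no filter on low counts, the filter at 10 CPM, thinned counts and the replicate block. It became 0 in the first file alone, which holds 1 Day 1 culture taken to vary like the rest, and in non-cycling cells only. Between Day 3 and Day 1 the count of 0 became 1 (Spry1) under DESeq2, the filter at 10 CPM and the replicate block. Between Day 7 and Day 3 it became 1 under DESeq2. Leaving out each culture in turn gave 1, 0 and 0 throughout for those 3 comparisons. In cycling against non-cycling cells, the count on Day 1 (1, Dusp6) became 0 with thinned counts or a class of at least 2 of 6 genes and ranged from 0 to 1 without single cultures. On Day 3 the count of 1 became 2 under DESeq2 and 0 with thinned counts or at least 2 of 6 genes, and ranged from 0 to 1. On Day 7 the count of 0 became 1 under DESeq2 and with thinned counts, and ranged from 0 to 1. The average over days (2) became 4 under DESeq2 and 1 without the filter, and ranged from 1 to 2. The cause of these changes was not tested. The number of all genes called, and so the background share, moved by over 1.5 times in places. DESeq2 called 2317 against 1241 for Day 7 against Day 1, 259 against 2 for Day 3 against Day 1 and 645 against 169 for Day 7 against Day 3. Leaving out each culture gave 436 (without Day 1 culture 1) to 1380, 0 to 5, and 35 (without Day 3 culture 2) to 174 in those comparisons. In cycling against non-cycling cells it gave 62 to 281 against 242 on Day 1, 102 to 422 against 355 on Day 3 and 494 to 759 against 751 on Day 7.

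Same-numbered cultures of different days did not deviate together (correlations from -0.010 to 0.061), so equal replicate numbers were not treated as pairs. The replicate block moved the count of all genes called from 1241 to 1031 for Day 7 against Day 1 and from 2 to 22 for Day 3 against Day 1. The median share of cells with a read over members and cultures was 49.3% at 200000 reads and stayed within the spread between cultures at 100000 reads and unthinned.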
